A study of Mus musculus with 6 samples.

Results

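Cyclin-dependent kinase (CDK) inhibitors were examined in haematopoietic stem cells (HSCs) of obese and lean mice. The members were the 7 symbols of the deposited table that name the inhibitors of the Cip/Kip family (Cdkn1a, Cdkn1b and Cdkn1c) and the INK4 family (Cdkn2a, Cdkn2b, Cdkn2c and Cdkn2d), out of 23955 symbols in all. They were chosen by gene name and not by a measured value, although earlier results of these data were known. Of the 7, 5 were above 0 and passed the filter on low values, a mean of at least 1 TPM over the libraries, while Cdkn2a and Cdkn2b were listed at 0 in every library. TPM, a share of all transcripts, is an abundance corrected for transcript length, so levels of different genes can be set side by side on it.

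The obese group were C57BL/6 mice homozygous for db (db/db), a mutation that removes the long signalling form of the leptin receptor in every cell, and the lean group were wild-type (WT) littermates of the same strain. All were 4 months old, and no treatment was given. Bone marrow cells that were lineage-negative, Sca-1+, c-Kit+, CD150+ and CD48- were sorted, 20000 per library. There were 3 experiments, each with 1 db/db and 1 WT library, so n = 3 in each group, and replicate 1 of both genotypes came from experiment 1, and so on. The labels do not say how many mice a library holds, so p-values measure the spread between these libraries.

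CDK inhibitors hold cells in the G1 phase of the cell cycle. INK4 proteins bind Cdk4 and Cdk6 and keep D-type cyclins off them, while Cip/Kip proteins bind cyclin-CDK complexes, above all those of Cdk2. Most HSCs are quiescent, and in mouse knockouts Cdkn1c is known for its part in that quiescence, Cdkn1a for stress and p53 responses, and Cdkn2a for stem cell loss when the polycomb repressor Bmi1 is missing.

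Depth per library is unknown, since TPM keeps no read counts, so no counting interval can be given for any value. Between 13314 and 13810 symbols were above 0 per library, and across genes the correlation of log2 values between libraries was 0.913 to 0.940 within a genotype and at 0.917 to 0.940 between genotypes. Markers of the sorted gate were present, with 14 of 14 listed HSC genes tested. Their summed level was 2094 to 2464 TPM in db/db and 1485 to 2553 TPM in WT libraries. Slamf1, which encodes CD150, was 31.0 ± 7.17 TPM in db/db and 17.8 ± 6.04 TPM in WT HSCs (SD, n = 3 each). Cd48, the gene of the marker that the gate excludes, was 9.10, 21.4 and 1.63 TPM in db/db replicates 1, 2 and 3. In WT it was 5.35, 4.20 and 1.09 TPM. It was above WT in all 3 experiments, as were 22.7% of all genes tested. Lepr, the mutated gene, was 1.997 ± 0.467 TPM in db/db and 2.69 ± 0.308 TPM in WT HSCs. A gene total does not check a mutation that acts on splicing. Markers of granulocytes and monocytes differed between libraries within both genotypes, with WT replicate 1 far above the other WT libraries, and their values are given beside Cdkn1a below.

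Cdkn2d was the most abundant of the inhibitors in each of the 6 libraries, at a mean of 130 TPM over all of them, rank 834 of 11931 genes tested. It was followed by Cdkn1a at 32.8 TPM, Cdkn1c at 21.2 TPM, Cdkn2c at 15.2 TPM and Cdkn1b at 13.7 TPM. Below Cdkn2d the order was not stable. Each neighbouring pair among the lower 4 was in one order in 3 libraries and in the other order in the other 3, with mean log2 ratios of 0.64 ± 1.56 for Cdkn1a over Cdkn1c, 0.22 ± 0.99 for Cdkn1c over Cdkn2c and 0.20 ± 0.56 for Cdkn2c over Cdkn1b (SD, n = 6). Cdkn2d over Cdkn1a was 2.22 ± 1.08 and above 0 in all 6. The libraries spanned 5.72-fold for Cdkn1c and 5.01-fold for Cdkn1a, against 1.80-fold for Cdkn2c, the steadiest member.

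**Figure D1:**
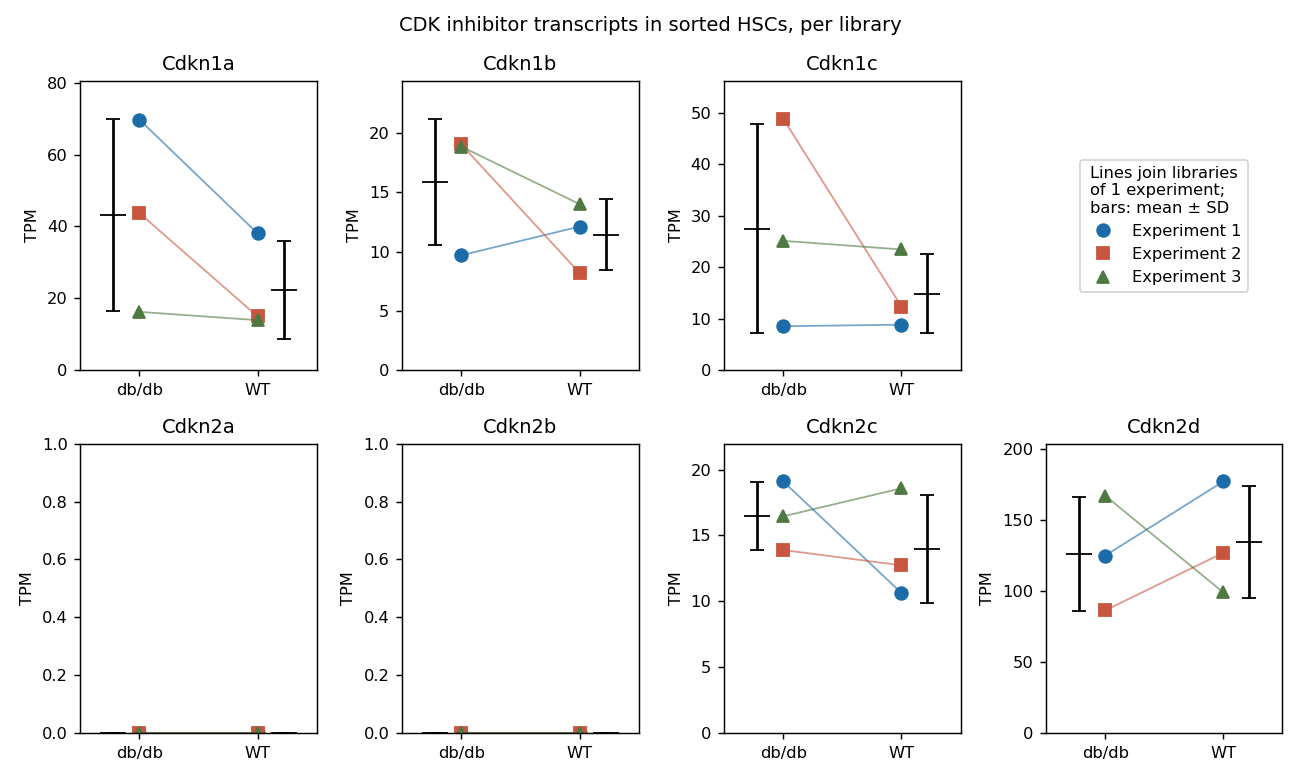
TPM of the 7 CDK inhibitor genes in each library, db/db left and WT right, with a marker per experiment, lines that join the libraries of 1 experiment and bars for the mean ± SD (n = 3). Cdkn1a is higher in db/db in all 3 experiments, the lines of the other 4 measured genes cross in direction, and Cdkn2a and Cdkn2b lie at 0.

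In these groups obesity and loss of the signalling receptor form come together, so their effects cannot be told apart. The comparison of db/db with WT asked whether the brakes of the stem cell cycle differ between the groups. It was made with limma on log2(TPM + 1) over all 11931 genes tested, with two-sided p-values adjusted by Benjamini-Hochberg over all of them. Of the 5 members tested, 0 passed at an adjusted p under 0.05, where 4 genes of the whole table did, 0.0335%. At an unadjusted p under 0.05 the count was also 0 of 5, against 4.1% of all genes higher and 1.25% lower, 5.35% together, and for 0 of 5 were the groups without overlap, against 10.2% of all genes. Of the members, 4 had a fold change above 0 and 1 below 0, against 8125 and 3806 of all 11931 genes tested. The median difference of the members was 0.41 on the log2 scale, where the median of all genes tested was 0.18. Median-of-ratios scaling brought that median of all genes to 0.00, and with it the calls at an unadjusted p under 0.05, 489 higher and 149 lower, became 295 and 355. Under that scaling the fold changes were 0.66 for Cdkn1a, 0.23 for Cdkn1b, 0.46 for Cdkn1c, 0.07 for Cdkn2c and -0.30 for Cdkn2d. The scaling divided each library by a size factor. These were 0.915, 1.13 and 1.23 in db/db and 0.914, 0.815 and 1.14 in WT replicates 1, 2 and 3. The genotypes thus lay furthest apart in experiment 2, over the whole table.

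Cdkn1a encodes p21, the inhibitor that p53 induces after DNA damage. It was 69.7, 43.7 and 16.2 TPM in db/db replicates 1, 2 and 3, against 38.1, 15.0 and 13.9 TPM in the WT replicates of the same experiments. Experiment 1 gave the highest library of each genotype and experiment 3 the lowest, and the groups overlapped because db/db replicate 3 lay below WT replicate 1. The means were 43.2 ± 26.8 TPM in db/db and 22.3 ± 13.7 TPM in WT HSCs (SD, n = 3 each), a ratio of 1.94. The log2 fold change was 0.85 (SE 0.46, 95% interval -0.09 to 1.80) and missed the threshold (limma, Benjamini-Hochberg adjusted p = 0.919, unadjusted 0.0755). Permuting the 6 libraries in an exact two-sided test gave p = 0.2, where 3 against 3 cannot go below 0.1. Cdkn1a was the only member above WT in every experiment, with log2 differences of 0.86, 1.49 and 0.21. Of all genes tested, 22.7% were above WT in all 3, so 1 of 5 is near that share, and 0 of 5 members were below WT in all 3, against 7.55% of all genes. Leaving out db/db replicate 1 made it 0.40, leaving out db/db replicate 3 made it 1.42 and leaving out WT replicate 1 made it 1.30. With the experiment as a block its unadjusted p was 0.0204 in limma and its adjusted p 0.634. The count of members at an unadjusted p under 0.05 was then 1 of 5, where 7.03% of all genes were at that level in the same fit.

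Summed markers of macrophages and of granulocytes were, like Cdkn1a, highest in the experiment 1 library of each genotype. In db/db both sums followed the order of Cdkn1a over replicates 1, 2 and 3. In WT they did not follow it between replicates 2 and 3. The 11 macrophage markers in the table summed to 142, 87.9 and 63.7 TPM in db/db replicates 1, 2 and 3, against 110, 35.8 and 59.5 TPM in WT. All 11 had a value above 0 in some library, and Spic had the smallest p of them, a gene that red-pulp macrophages need, at 13.6 ± 0.893 TPM in db/db and 2.73 ± 1.06 TPM in WT HSCs (SD, n = 3 each). The most abundant was Cd68, a lysosomal protein gene of macrophages, at 46.0 ± 20.7 and 38.3 ± 12.2 TPM. Of the 7 tested, 0 passed in limma and 2 were higher at an unadjusted p under 0.05, where 4.1% of all genes were. Their median log2 fold change was 0.42. All 7 had a fold change above 0, as did 8125 of all 11931 genes tested. The other gene at that p was Vcam1, at 5.93 ± 4.28 TPM in db/db and 2.17 ± 3.63 TPM in WT HSCs. The macrophage receptor genes Mertk, Marco and Siglec1, and C1qa, averaged under 1 TPM and were not tested.

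The 15 granulocyte and monocyte markers summed to 4152, 2148 and 1936 TPM in db/db and to 4871, 701 and 760 TPM in WT replicates 1, 2 and 3. WT replicate 1 stood apart from the other WT libraries. Without Lyz2, the lysozyme gene, the sums were 3772, 1657 and 1480 TPM in db/db and 4477, 192 and 269 TPM in WT. Of the 12 markers tested, 0 passed in limma and 10 were higher at an unadjusted p under 0.05, where 4.1% of all genes were. Their median log2 fold change was 2.08. S100a8, which encodes a subunit of calprotectin and was the most abundant of these markers, was 1528, 559 and 512 TPM in db/db and 2127, 67.8 and 90.5 TPM in WT. Fcnb, a ficolin gene and the marker of smallest p, averaged 29.8 ± 13.2 TPM in db/db, and was listed at 16.4, 0 and 0 TPM in WT. It passed when WT replicate 1 was left out (log2 fold change 4.84, limma adjusted p = 8.39e-07, against 0.155 with all libraries). Both sums were lower in WT replicate 2 than in WT replicate 3, while Cdkn1a was slightly higher in WT replicate 2, at 15.0 against 13.9 TPM. The granulocyte sum was lower in db/db than in WT in experiment 1 and higher in experiments 2 and 3, and Cdkn1a was higher in all 3. In bulk samples a change in the number of such cells and a change in RNA per cell cannot be told apart, and the part of these cells in the Cdkn1a values was not tested.

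**Figure D2:**
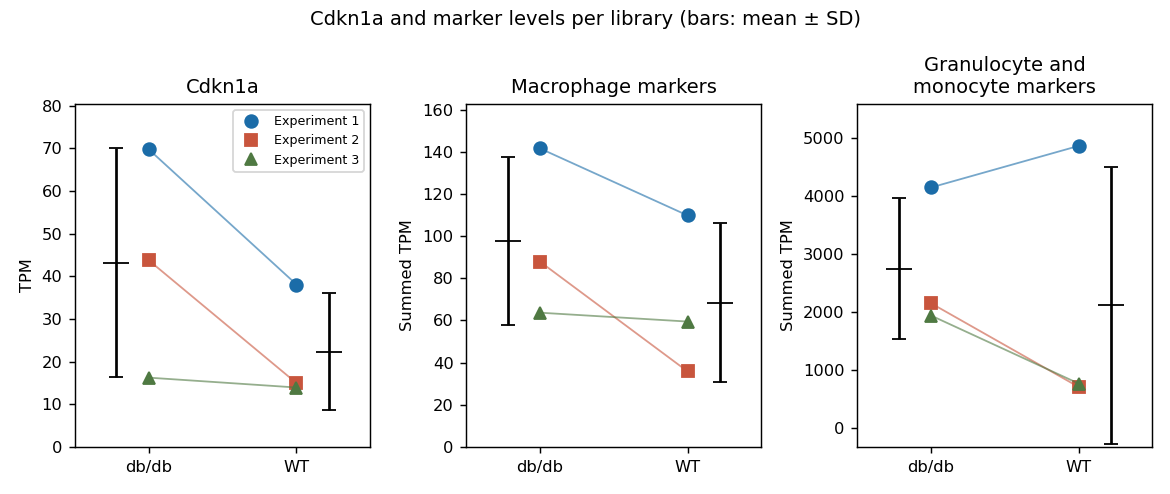
Cdkn1a in TPM beside the summed TPM of 11 macrophage markers and of 15 granulocyte and monocyte markers, db/db left and WT right, with 1 marker per experiment and bars for mean ± SD. All 3 quantities are highest in experiment 1 in both genotypes, and the granulocyte sum of WT replicate 1, 4871 TPM, lies far above the other 2 WT libraries.

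By the smallest root mean square difference between mean-centred log2 values over the 6 libraries, the genes most like Cdkn1a were 2810468N07Rik, at 0.29, and Hmox1, which encodes the haem-degrading enzyme haem oxygenase 1, at 0.32, where the median over 7592 genes of at least 10 TPM was 0.97. Hmox1 was 20.7, 18.4 and 7.37 TPM in db/db and 20.6, 8.97 and 6.58 TPM in WT replicates 1, 2 and 3. It is one of the 11 macrophage markers.

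RefSeq lists 2 starts of Cdkn1a, and the 250 bases before each are shown because Cdkn1a is the member with the largest difference and a textbook p53 target. Capitals mark a pair of p53 core letters, CATG followed after a gap of 6 bases by CATG again, and GC boxes, GGGCGG, searched on both strands without overlap between these motifs. Sequences are from RefSeq on GRCm38.p6, 5′ to 3′ on the gene's strand, and 6 of the 7 members matched, with 9 windows.
Cdkn1a upstream start, chr17:29090729-29090978, plus strand: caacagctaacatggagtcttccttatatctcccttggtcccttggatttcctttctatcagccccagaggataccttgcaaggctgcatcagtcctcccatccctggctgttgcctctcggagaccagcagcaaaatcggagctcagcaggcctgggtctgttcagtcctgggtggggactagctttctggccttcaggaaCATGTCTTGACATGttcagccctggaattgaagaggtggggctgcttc
Cdkn1a downstream start, chr17:29093519-29093768, plus strand: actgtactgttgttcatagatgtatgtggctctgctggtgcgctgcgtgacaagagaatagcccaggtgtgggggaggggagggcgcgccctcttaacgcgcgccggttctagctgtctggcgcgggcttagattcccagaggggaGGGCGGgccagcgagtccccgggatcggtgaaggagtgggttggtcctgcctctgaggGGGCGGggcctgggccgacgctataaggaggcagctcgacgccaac
The window of the upstream start holds the p53 pair, which begins 48 bases before that start, and no GC box. The downstream window holds 2 GC boxes and no p53 pair. Over all 32851 promoter windows of the same length, 0.49% hold the p53 pair and 32.7% a GC box. TATAA stood in both windows of Cdkn1a and in 22.8% of all windows. AATC, the core of Gfi1 sites, stood in both and in 69% of all, and the FoxO motif TGTTTAC, found in 3.17% of all, stood in none of the 9 windows of the members. A match is a description of the letters and does not show binding, and the gene-level TPM does not say which start was used.

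Cdkn1b encodes p27, which binds Cdk2 complexes and is removed by the ubiquitin ligase of Skp2 and Cks1b. It was 9.70, 19.1 and 18.9 TPM in db/db replicates 1, 2 and 3, against 12.1, 8.21 and 14.02 TPM in WT. The db/db library was the lower one in experiment 1 and the higher one in experiments 2 and 3, and the groups overlapped. Means of 15.9 ± 5.35 TPM in db/db and 11.5 ± 2.96 TPM in WT HSCs (SD, n = 3 each) gave a log2 fold change of 0.41 (SE 0.41, 95% interval -0.44 to 1.26, limma adjusted p = 0.920). The genes closest to it over the 6 libraries were Ddx26b, at a root mean square difference of 0.06, and D930015E06Rik, at 0.07, against a median of 0.39.

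Cdkn1c encodes p57, the imprinted member of the family, expressed from the maternal allele. It was 8.55, 48.9 and 25.2 TPM in db/db replicates 1, 2 and 3, against 8.85, 12.4 and 23.5 TPM in WT. In experiments 1 and 3 the genotypes were close, at log2 differences of -0.04 and 0.10, and in experiment 2 db/db was higher by 1.90. The means were 27.5 ± 20.3 TPM in db/db and 14.9 ± 7.63 TPM in WT HSCs (SD, n = 3 each), with a log2 fold change of 0.65 (SE 0.49, 95% interval -0.37 to 1.67, limma adjusted p = 0.920). That difference rested on single libraries, since it was 0.10 when db/db replicate 2 was left out and 1.29 when db/db replicate 1 was. Mettl4 and Clybl were the genes most like it, at 0.22 and 0.26 against a median of 0.77.

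Cdkn1c lies in a cluster of imprinted genes controlled by the non-coding RNA Kcnq1ot1. Of 12 listed genes of that chromosome 7 region, 8 were tested, and 0 passed in limma, with 0 at an unadjusted p under 0.05. Their median log2 fold change was 0.08, against 0.18 for all genes. The groups did not overlap for 1, Osbpl5, which was lower in db/db, as were 2.32% of all genes. It was 1.65 ± 0.961 TPM in db/db and 2.46 ± 0.194 TPM in WT HSCs. Kcnq1ot1 was 2.06, 4.49 and 5.66 TPM in db/db and 2.85, 2.92 and 3.78 TPM in WT replicates 1, 2 and 3. Phlda2, another maternally expressed gene of the cluster, was 30.5 ± 12.3 TPM in db/db and 39.6 ± 11.4 TPM in WT HSCs, and Tssc4 was 34.5 ± 11.0 and 42.3 ± 6.58 TPM (SD, n = 3 each). Cd81, a tetraspanin gene and the most abundant of the region, was 879 ± 23.0 and 839 ± 87.6 TPM.

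Summed over the 3 genes, Cip/Kip transcripts were 88.0, 112 and 60.3 TPM in db/db replicates 1, 2 and 3, against 59.1, 35.5 and 51.4 TPM in WT. The means were 86.6 ± 25.7 TPM in db/db and 48.7 ± 12.0 TPM in WT HSCs (SD, n = 3 each), and no test was made of this sum because its members were chosen with results known. Every db/db value lay above every WT value, the closest being 60.3 TPM in db/db replicate 3 and 59.1 TPM in WT replicate 1, a separation that 10.2% of single genes also showed in one direction or the other. It was lost under other scalings. After median-of-ratios scaling the sums were 96.2, 98.7 and 49.1 in db/db and 64.6, 43.6 and 45.2 in WT, and with 3 rRNA-like symbols removed db/db replicate 3, at 68.0, lay below WT replicate 1, at 69.8.

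The make-up of the Cip/Kip sum differed between experiments in both genotypes. Cdkn1a made up 79.3%, 39.2% and 26.95% of it in db/db replicates 1, 2 and 3 and 64.5%, 42.1% and 27.1% in WT. Cdkn1c made up 9.72%, 43.8% and 41.7% in db/db and 15.0%, 34.8% and 45.6% in WT. Experiment 1 was thus a Cdkn1a-rich pair of libraries in both genotypes. When the spread of the log2 values was divided, the experiment took 66.4% for Cdkn1a and 59.0% for Cdkn1c, and the genotype 24.4% and 14.4%. The medians over all genes tested were 43.4% for the experiment, which has 2 degrees of freedom, and 14.01% for the genotype, which has 1. For Cdkn1b, Cdkn2c and Cdkn2d the experiment took 28.7%, 30.8% and 31.4%, each below that median, and the genotype 23.9%, 19.0% and 1.87%. These shares describe 6 libraries and carry no test.

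**Figure D3:**
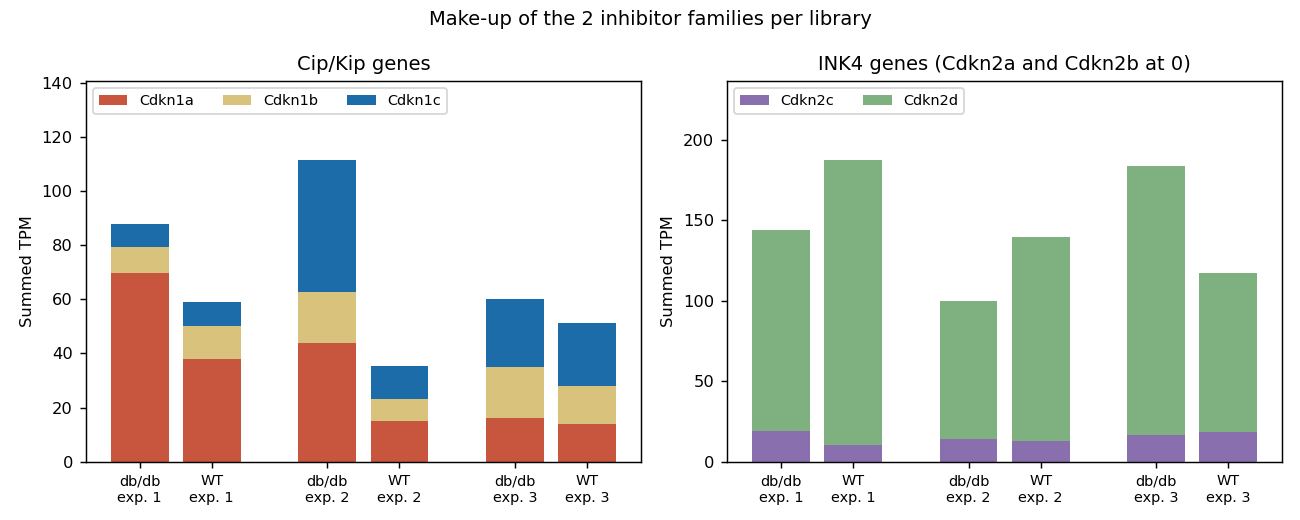
Stacked TPM of the Cip/Kip genes (left) and the INK4 genes (right) in each library, db/db beside WT within each experiment. Cdkn1a makes up most of the Cip/Kip bars of experiment 1 in both genotypes (79.3% in db/db, 64.5% in WT), and Cdkn2d makes up most of every INK4 bar.

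Cdkn2d encodes p19Ink4d, an INK4 protein that in mouse megakaryocytes and HSCs is known to act on cell cycle arrest. It was 125, 86.3 and 167 TPM in db/db replicates 1, 2 and 3, against 177, 127 and 99.0 TPM in WT. The log2 difference was -0.50 in experiment 1, -0.55 in experiment 2 and 0.75 in experiment 3, so the groups overlapped over nearly their whole range. The means of 126 ± 40.4 TPM in db/db and 134 ± 39.6 TPM in WT HSCs (SD, n = 3 each) gave a log2 fold change of -0.10 (SE 0.29, 95% interval -0.71 to 0.51, limma adjusted p = 0.968). The sign turned to 0.14 without db/db replicate 2 and 0.12 without WT replicate 1. Ict1 and Prmt7 were the genes most like it, at 0.07 and 0.12 against a median of 0.56.

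Its promoter is shown because Cdkn2d is the inhibitor with by far the highest level, and GC boxes on either strand are in capitals.
Cdkn2d, chr9:21291210-21291459, minus strand: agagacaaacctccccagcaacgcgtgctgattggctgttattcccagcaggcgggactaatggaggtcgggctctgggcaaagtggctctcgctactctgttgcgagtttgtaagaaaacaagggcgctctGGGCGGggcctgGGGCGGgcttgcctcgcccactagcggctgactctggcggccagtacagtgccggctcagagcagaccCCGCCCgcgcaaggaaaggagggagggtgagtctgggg
It held 3 GC boxes, no p53 pair and no TATAA.

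Cdkn2c encodes p18Ink4c, whose loss in mice is known to enlarge the HSC pool. It was 19.1, 13.9 and 16.5 TPM in db/db replicates 1, 2 and 3, against 10.6, 12.7 and 18.6 TPM in WT. The log2 difference was 0.79 in experiment 1, 0.12 in experiment 2 and -0.17 in experiment 3, and the groups overlapped. With means of 16.5 ± 2.61 TPM in db/db and 13.98 ± 4.12 TPM in WT HSCs (SD, n = 3 each), the log2 fold change was 0.25 (SE 0.38, 95% interval -0.55 to 1.04, limma adjusted p = 0.929). Srf, a transcription factor of growth-factor responses, and Vipas39 were the genes most like it, at 0.03 and 0.06 against a median of 0.41.

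Cdkn2a encodes p16Ink4a and, from another start and reading frame, the p53 activator Arf, and Cdkn2b encodes p15Ink4b, a target of TGF-beta signalling. Both were listed at 0 in all 3 db/db and all 3 WT libraries, as were 8489 symbols of the table in all. None of 15 widely expressed genes checked, such as Actb and Tbp, was at 0 in any library. The nearest protein-coding genes on either side in the RefSeq annotation were Mtap, a methionine salvage enzyme gene, and Dmrta1. Mtap was 17.0, 41.7 and 24.8 TPM in db/db replicates 1, 2 and 3 and 24.5, 25.1 and 49.1 TPM in WT, while Dmrta1 was listed at 0 throughout. The depth of the libraries is unknown, so the level below which these transcripts would be missed cannot be given.

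The 250 bases before both starts of Cdkn2a are shown because neither protein had a measured transcript in these cells, with GC boxes in capitals.
Cdkn2a start of Arf, chr4:89294620-89294869, minus strand: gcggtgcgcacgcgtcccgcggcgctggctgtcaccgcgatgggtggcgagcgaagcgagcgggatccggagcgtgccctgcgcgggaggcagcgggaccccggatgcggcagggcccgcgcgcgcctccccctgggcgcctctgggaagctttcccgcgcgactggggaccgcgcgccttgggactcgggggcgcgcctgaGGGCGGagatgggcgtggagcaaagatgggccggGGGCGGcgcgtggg
Cdkn2a start of p16Ink4a, chr4:89282193-89282442, minus strand: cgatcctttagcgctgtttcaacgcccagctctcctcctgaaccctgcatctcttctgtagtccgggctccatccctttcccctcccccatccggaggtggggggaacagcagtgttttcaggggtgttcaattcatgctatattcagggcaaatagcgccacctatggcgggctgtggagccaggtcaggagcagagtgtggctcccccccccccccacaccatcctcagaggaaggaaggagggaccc
The Arf window had 78.4% G or C, 40 CpG sites and 2 GC boxes. The p16Ink4a window had 60.0% G or C, 7 CpG sites and no GC box, where the median of all windows was 52.4% G or C. The ratio of observed to expected CpG was 1.08 and 0.32, against a median of 0.37.

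INK4 transcripts summed to 144, 100.2 and 184 TPM in db/db replicates 1, 2 and 3 and to 188, 140 and 118 TPM in WT, with means of 143 ± 41.7 TPM in db/db and 148 ± 35.9 TPM in WT HSCs (SD, n = 3 each). Cdkn2d made up 86.1% to 91.0% of the sum in db/db and 84.2% to 94.3% in WT. The INK4 sum per Cip/Kip sum was 1.64, 0.897 and 3.05 in db/db and 3.18, 3.93 and 2.29 in WT. The db/db value was the lower one in experiments 1 and 2 only.

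Cdkn2a, Cdkn2b and Cdkn2c share chromosome 4 with Lepr, where genes near Lepr are inherited with the db mutation, so that a difference in linked sequence and the mutation cannot be told apart. A list of 22 genes meant to lie on that chromosome was used, of which the annotation puts 20 there and Gadd45a and Serbp1 on another. Of the 20, 15 were tested, 0 passed in limma and 0 had an unadjusted p under 0.05, and their median log2 fold change was 0.27. Jak1, a kinase gene of cytokine receptors close to Lepr, was 131 ± 29.3 TPM in db/db and 98.0 ± 31.4 TPM in WT HSCs, and Jun was the most abundant at 347 ± 98.9 and 342 ± 125 TPM (SD, n = 3 each). Other members were on chromosome 17 (Cdkn1a), 6 (Cdkn1b), 7 (Cdkn1c) and 9 (Cdkn2d).

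**Figure D4:**
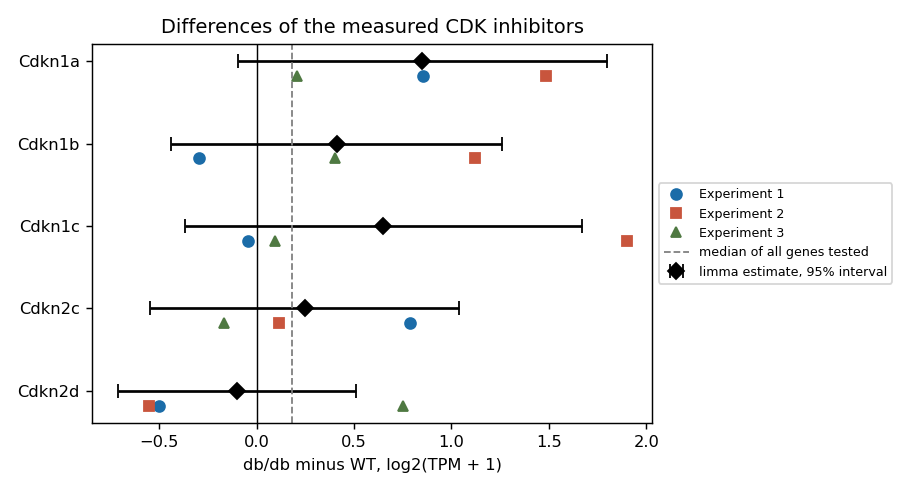
Differences of the 5 measured CDK inhibitors, db/db minus WT on log2(TPM + 1), with diamonds and bars for the limma estimate and its 95% interval, coloured markers for the difference within each experiment, and a dashed line at the median of all genes tested, 0.18. All 5 intervals include 0, and experiment 2 gives the highest difference for Cdkn1a (1.49), Cdkn1b (1.12) and Cdkn1c (1.90). Experiment 2 also had the widest gap in median-of-ratios size factors, 1.13 in db/db and 0.815 in WT, and the differences shown are not scaled by them.

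The targets of the inhibitors are the G1 cyclins and their kinases. Of 13 genes on that list, 13 were tested and 0 passed in limma, with 0 at an unadjusted p under 0.05 and a median log2 fold change of 0.12, against 0.18 for all genes. Cdk4, the main partner of INK4 proteins and the most abundant of the list, was 543, 620 and 552 TPM in db/db replicates 1, 2 and 3, against 419, 423 and 499 TPM in WT. It was the 1 of 13 whose groups did not overlap, against 10.2% of all genes, and its log2 fold change was 0.36 (SE 0.22, limma adjusted p = 0.919). Cdk6 was 65.4 TPM in db/db and 46.4 TPM in WT HSCs on average. The D-type cyclin Ccnd3 was 127 ± 16.6 TPM in db/db and 161 ± 30.3 TPM in WT HSCs (SD, n = 3 each), lower in all 3 experiments, with a log2 fold change of -0.34 (limma adjusted p = 0.920). INK4 transcripts were 0.250, 0.142 and 0.291 per TPM of Cdk4 and Cdk6 together in db/db, and 0.419, 0.289 and 0.215 in WT.

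Retinoblastoma-family proteins, which the kinases phosphorylate, and the E2F factors that they bind formed a list of 16 genes. All 16 were tested and 0 passed in limma, with a median of 0.33. At an unadjusted p under 0.05, 1 was higher and 0 were lower, where 4.1% of all genes were higher. The groups did not overlap for 3, all higher in db/db. They were Tfdp1, the dimer partner of E2F proteins, at 118 ± 19.8 TPM in db/db and 78.3 ± 14.1 TPM in WT HSCs, Rbl1, which encodes p107, at 24.9 ± 3.38 and 16.6 ± 4.35 TPM (SD, n = 3 each), and Lin52. The shares of genes without overlap over the whole table were 7.85% higher and 2.32% lower.

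Proteins that degrade or carry the inhibitors also did not pass. Of 16 turnover genes tested, 0 passed and 0 had an unadjusted p under 0.05 in limma, with a median of 0.22. Skp1a, a core part of the Skp2 ligase, was 521 ± 127 TPM in db/db and 400.1 ± 118 TPM in WT HSCs, Pcna, the replication clamp that p21 binds, was 679 ± 129 and 504 ± 96.3 TPM, and the chaperone gene Hspa8 was the most abundant at 1874 ± 332 and 1801 ± 274 TPM (SD, n = 3 each).

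Known activators of CDK inhibitor genes comprised 23 genes, all tested. In limma 0 passed, 2 were higher and 0 were lower at an unadjusted p under 0.05, and the median was 0.32. Over all genes, 4.1% were higher at that p. The groups did not overlap for 2 of 23, both higher, near the 7.85% of all genes. In all 3 experiments 10 of 23 were above WT, 43.5%, against 22.7% of all genes, and 0 were below, against 7.55%. Smad4, the shared Smad of TGF-beta and BMP signalling, was 30.8, 31.7 and 33.6 TPM in db/db replicates 1, 2 and 3, against 14.4, 14.4 and 24.9 TPM in WT. Tgfbr2, a TGF-beta receptor gene, was 27.6, 36.5 and 48.3 TPM in db/db, against 20.0, 17.0 and 26.7 TPM in WT. Neither pair of groups overlapped, and the log2 fold changes were 0.85 (SE 0.35, limma adjusted p = 0.894) and 0.78 (SE 0.35, 0.904). Trp53, the gene of p53, was 441 TPM in db/db and 405 TPM in WT HSCs on average. Egr1, an immediate early transcription factor and the most abundant activator, was 1546 ± 247 and 1223 ± 492 TPM (SD, n = 3 each).

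Known repressors of these genes comprised 23 genes, of which 22 were tested and Tbx3 was listed at 0. In limma 0 passed, and the median was 0.25. At an unadjusted p under 0.05, 1 was higher and 0 were lower. Over all genes 4.1% were higher at that p, and 1 of 22 is near that share. The 1 was Gfi1, the zinc-finger repressor named in the title of the study, which binds the Cdkn1a gene in other settings. It was 11.8, 17.3 and 10.2 TPM in db/db, against 1.99, 3.88 and 4.75 TPM in WT replicates 1, 2 and 3. Gfi1b, its paralog, was 94.2 ± 19.9 TPM in db/db and 125 ± 25.2 TPM in WT HSCs, and Myc, which represses Cdkn1a through Miz1, was 191 ± 19.2 and 154 ± 16.5 TPM without overlap (SD, n = 3 each). Gfi1 and Myc were the 2 of 22 that were higher without overlap, against 7.85% of all genes. Bmi1, the polycomb repressor of Cdkn2a, was 8.95, 22.6 and 8.84 TPM in db/db and 10.5, 11.7 and 11.5 TPM in WT.

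**Figure D5:**
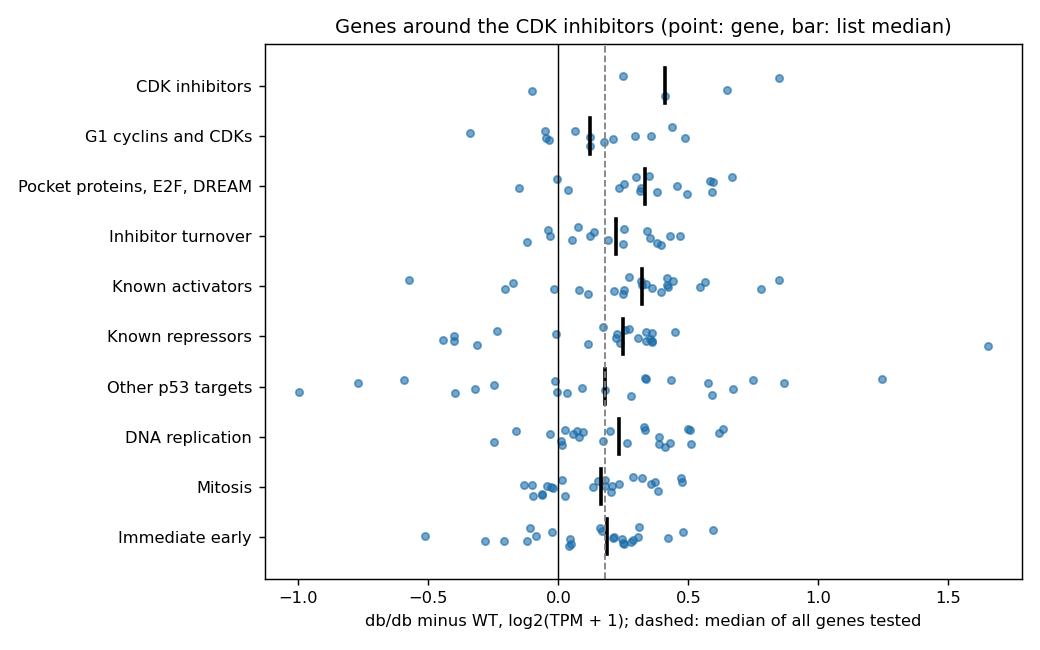
Log2 fold change, db/db minus WT, of every tested gene (points) of the CDK inhibitor list and 9 lists around it, with a bar at each list's median and a dashed line at the median of all genes tested, 0.18. List medians lie between 0.12 for G1 cyclins and CDKs and 0.41 for the CDK inhibitors, and the point at 1.65 is Gfi1.

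Other p53 targets were also listed. Of 25, 24 were in the table and 21 were tested, 0 passed in limma, 2 were higher and 0 were lower at an unadjusted p under 0.05, and the median was 0.18, the same as for all genes. Of the 21, the groups did not overlap for 2 that were higher in db/db, Ddit4 and Plk3, and for 3 that were lower, Gadd45b, Aen and Ei24, where the shares over all genes were 7.85% higher and 2.32% lower. Over all genes, 4.1% were higher at an unadjusted p under 0.05. Ddit4, an inhibitor of mTORC1 induced by stress, was 50.4, 35.8 and 40.8 TPM in db/db replicates 1, 2 and 3, against 22.1, 22 and 23.6 TPM in WT (log2 fold change 0.87, SE 0.32, limma adjusted p = 0.795). Gadd45a was 8.47 ± 2.46 TPM in db/db and 3.47 ± 2.82 TPM in WT HSCs, and Sesn1, the most abundant of the list, was 100.1 ± 22.2 and 79.4 ± 20.3 TPM (SD, n = 3 each). Mdm2, the p53 ligase and a direct p53 target, was 28.1, 55.7 and 60.2 TPM in db/db and 38.2, 23.6 and 50.8 TPM in WT. It was lower in db/db in experiment 1 and higher in experiments 2 and 3, and its part in the Cdkn1a values was not tested.

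Genes of the phases that the inhibitors hold back had list medians near that of the whole table, 0.18. Of 24 DNA replication genes tested, 0 passed and 0 had an unadjusted p under 0.05 in limma, with a median of 0.23 that was 0.038 after median-of-ratios scaling. Of these 24, 21 had a fold change above 0, against 8125 of all 11931 genes. In all 3 experiments 8 were above WT, 33.3%, against 22.7% of all genes. Mcm2 was the 1 higher without overlap, against 7.85% of all genes. Mcm4, a subunit of the replicative helicase, was 52.3 ± 17.2 TPM in db/db and 32.6 ± 4.72 TPM in WT HSCs (SD, n = 3 each). Of 24 mitosis genes tested, 0 passed and 0 had an unadjusted p under 0.05, with a median of 0.16. Among them 16 had a fold change above 0, and 1 was above WT in all 3 experiments. Ccnb2, a B-type cyclin, was 68.5 ± 13.7 TPM in db/db and 52.3 ± 10.5 TPM in WT HSCs, the centromeric histone gene Cenpa was 53.2 ± 13.0 and 37.7 ± 6.08 TPM, and the ubiquitin-conjugating enzyme gene Ube2c was the most abundant at 249 ± 52.5 and 246 ± 53.5 TPM.

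Immediate early genes respond to handling of cells as well as to growth signals, and some are known to act on Cdkn1a. Of 24 tested, 0 passed and 0 had an unadjusted p under 0.05 in limma, with a median of 0.19. The groups did not overlap for 3, Zfp36, Dusp1 and Myc, all higher in db/db, where 7.85% of all genes were. Zfp36, an RNA-binding protein gene, was the most abundant at 2128 ± 13.9 TPM in db/db and 1843 ± 86.2 TPM in WT HSCs (SD, n = 3 each), and Maff was 41.2 ± 12.6 and 29.1 ± 8.84 TPM.

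The remaining marker lists gave these values. Of the 14 HSC genes, 0 passed in limma and 1, Slamf1, was higher at an unadjusted p under 0.05, against 4.1% of all genes. Slamf1 and Tek were the 2 of 14 that were higher without overlap, against 7.85% of all genes. The median log2 fold change of the HSC genes was 0.28, and 13 were above 0. Genes of progenitors outside the HSC gate had 12 of 12 tested, and 11 had a fold change above 0, against 8125 of 11931 genes. In limma 2 were higher at an unadjusted p under 0.05, where 4.1% of all genes were. They were Cd53 and Flt3, and Flt3 was 23.1 ± 5.80 TPM in db/db and 9.17 ± 3.29 TPM in WT HSCs. The median log2 fold change of the list was 0.63. Its genes summed to 893 to 1327 TPM in db/db and 649 to 852 TPM in WT libraries. Cd53, which passed only when WT replicate 1 was left out (limma adjusted p = 0.0198), was 54.0 ± 18.9 TPM in db/db and 16.2 ± 9.05 TPM in WT HSCs, and Cd27 was 229 ± 84.9 and 219 ± 125 TPM (SD, n = 3 each). Erythroid markers summed to 993 to 2032 TPM in db/db and 649 to 858 TPM in WT, with the beta-globin gene Hbb-b2 at 706 ± 571 and 74.5 ± 17.6 TPM, the 1 listed gene that passed in limma (adjusted p = 0.000688, but 0.890 without the filter, 0.358 after median-of-ratios and 0.199 after quantile scaling, and 0.398 without a trend), and Car2 at 694 ± 83.7 and 566 ± 168 TPM. Of the erythroid sums, Hbb-b2 alone took 1348, 513 and 256 TPM in db/db replicates 1, 2 and 3. Another beta-globin gene, Hbb-b1, was 0, 56.2 and 15.6 TPM in db/db and 5.84, 17.2 and 7.91 TPM in WT. Hba-a1 averaged 12.4 TPM in db/db and 13.5 TPM in WT. Among the 9 erythroid genes tested, 6 had a fold change above 0 and 3 below 0, against 8125 and 3806 of all 11931 genes. Megakaryocyte markers summed to 735 to 968 TPM in db/db and 589 to 794 TPM in WT, with Pf4 at 468 ± 139 and 319 ± 138 TPM and Treml1 at 7.23 ± 3.73 and 16.5 ± 4.28 TPM.

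Lymphoid markers summed to 203 to 324 TPM in db/db and 112 to 180 TPM in WT, of which Nkg7 was 171 ± 40.3 and 78.4 ± 32.9 TPM and Thy1 40.3 ± 12.2 and 13.9 ± 5.28 TPM. Of the 5 lymphoid genes tested, 0 passed in limma and 3, Thy1, Nkg7 and Cd4, were higher at an unadjusted p under 0.05. Over all genes 4.1% were. Groups did not overlap for 2, Thy1 and Nkg7, both higher in db/db, where 7.85% of all genes were. The median log2 fold change of the 5 was 1.16, against 0.18 for all genes. The defining genes Cd3e, Cd3g, Ms4a1, Il7r, Rag1, Ebf1, Pax5 and Igll1 were at 0 in every library. Stromal and endothelial markers summed to 95.5 to 109 TPM in db/db and 66.9 to 114 TPM in WT, with Emcn at 56.3 ± 9.67 and 46.0 ± 16.0 TPM and Col1a2 at 1.46 ± 0.805 and 4.37 ± 0.363 TPM. Next to Emcn came Pecam1, at 30.9 ± 5.05 TPM in db/db and 24.4 ± 8.48 TPM in WT HSCs. Cxcl12, Kitl, Pdgfra, Col1a1, Adipoq and Cdh5 of that list averaged under 1 TPM and were not tested. The part of any cells of the marker lists in the inhibitor levels was not tested.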

How the data were processed

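RNA was measured by sequencing in 6 HSC libraries, 3 from db/db and 3 from WT mice, as stranded poly(A) libraries read as pairs of 75 nucleotides, per the labels' protocols. The values deposited by the authors were TPM per gene symbol, made with RSEM and Bowtie2 on mm9, per the submitters' processing notes. The sources used here give no version, setting or annotation for them. Each column sums to 1000000 TPM, so depth is unknown.

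The members, gene lists and tests were chosen with earlier results of these data known. Differences between genotypes were fitted on log2(TPM + 1), which understates changes of low genes, with limma 3.58.1 (R 4.3.3) for genes averaging 1 TPM or more. The fit had no other term and used trended empirical Bayes moderation (17.7 prior and 4 residual degrees of freedom), two-sided tests and Benjamini-Hochberg adjustment. The code was tested on simulated data. RSEM divides reads that match several genes by an estimate.

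Genes named were the members, Lepr and Gfi1, from each other pathway or region list the 2 of smallest p and the most abundant, from each of 8 marker lists 1 of each kind, and for each member the 2 genes of most similar profile. Others named were picked after their values were seen. The result of 1 gene that the rule names is not reported here. Alternatives were pseudocounts of 0.1 and 0.5, no filter or one of 5 TPM, median-of-ratios and quantile scaling, removal of Rn45s, Gm20594 and Lars2, no trend, the experiment as a replicate block, and leaving out each library.

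The labels give each experiment number to 1 library of each genotype, which pairs them. Across genes, deviations from the means of the groups had correlations of 0.04, 0.01 and 0.16 within experiments and at -0.12 to 0.08 between them.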

Additional observations from a re-analysis of the deposited data

How the results depend on the processing

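None of the 5 inhibitors tested passed under any of the 15 alternatives. Cdkn1a, Cdkn1b, Cdkn1c and Cdkn2c kept a fold change above 0 in all 15, and Cdkn2d one below 0 in 13. With single libraries left out, the log2 fold change ran from 0.40 to 1.42 for Cdkn1a, 0.21 to 0.71 for Cdkn1b, 0.10 to 1.29 for Cdkn1c, 0.08 to 0.46 for Cdkn2c and -0.33 to 0.14 for Cdkn2d, which turned positive without db/db replicate 2 (0.14) and without WT replicate 1 (0.12). With the experiment as a replicate block the limma adjusted p was 0.634 for Cdkn1a, 0.810 for Cdkn1b, 0.735 for Cdkn1c, 0.870 for Cdkn2c and 0.937 for Cdkn2d, and the block changed no call of a member at an adjusted p under 0.05. At an unadjusted p under 0.05 it took the members' count to 1, Cdkn1a, against 0 without it. Over all genes, the 4 that passed as higher became 0 without a filter, 1 after median-of-ratios scaling, 1 after quantile normalization, 0 without a trend and 3 to 16 with a library left out (8 without db/db replicate 3, 16 without WT replicate 1). The 0 that passed as lower became 1 at a mean of at least 5 TPM, 2 with the replicate block and 0 to 2 with a library left out. The cause of these shifts was not tested.

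List medians moved by more than their spread between experiments in a few cases. The macrophage median was 1.06 with a pseudocount of 0.1, the lymphoid median 0.33 without a filter, and the stromal median 0.37 at a mean of at least 5 TPM. After median-of-ratios and quantile scaling the DNA replication median was 0.038 and 0.095, and the megakaryocyte median 0.040 and 0.091. With a library left out the medians ran from 0.10 to 0.38 for DNA replication, 0.10 to 0.37 for megakaryocyte, -0.23 to 0.44 for erythroid, 0.30 to 1.28 for progenitor, 0.25 to 1.78 for macrophage and -0.10 to 0.59 for stromal genes. Unknown depth and 3 libraries a group limit all of these values.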
